A study of Mus musculus with 2 samples.

Results

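The 36 genes described here encode the glucose transporters and enzymes of glycolysis and genes that cells switch on when oxygen is short. They were taken by symbol, a rule that uses no measured value, although the list was chosen with earlier results of these data known. All 36 were present among the 32285 genes of the deposited tables. Raw UMIs (molecules counted through unique molecular identifiers) were summed over the cell barcodes of each cell class, and each class was split by its share of Malat1, a long RNA retained in nuclei. A barcode is called Malat1-rich where Malat1 supplied 0.1% or more of its UMIs, and Malat1-poor otherwise.

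The material was B16F10-OVALBUMIN/VEGFC skin tumors, grown from a mouse melanoma line carrying ovalbumin and the lymphatic growth factor VEGF-C. In 2 groups of mice, Ifngr1iProx1 (called Cre plus here) and Ifngr1WT (called Cre minus), the cells were implanted intradermally and tumors were taken on day 15. Ifngr1 encodes a subunit that binds interferon-γ, and Prox1, after which the Cre mouse is named, is the transcription factor of lymphatic endothelium. The tumor cells are the injected line in both groups, and 3 tumors per group were pooled and sorted as DAPI-, CD31+, CD45-. Neither the age of the mice nor an agent inducing the Cre is stated in the labels. Each pool gave 1 library, so no difference between the groups has a replicate check, and there is no test. The 95% intervals in brackets are exact and cover counting error only.

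The libraries held 2491 (Cre plus) and 2502 (Cre minus) barcodes, of which 1777 and 1549 passed the filters, with 63325101 and 70269649 UMIs. A single barcode sequence occurred in both libraries. Marker genes gated lymphatic endothelial barcodes (LEC, 628 and 173), blood endothelial barcodes (BEC, 209 and 240) and melanoma barcodes (481 and 806), although the sort was for CD31. All 7 LEC markers were detected in all 4 LEC sets, all 10 BEC markers in all 4 BEC sets, and all 8 pigment cell markers in all 4 melanoma sets. Malat1-rich barcodes were 59.4% of LEC in Cre plus and 18.5% in Cre minus, so the Malat1-rich LEC sets held 373 and 32 barcodes. In those sets Ifngr1 itself had 33.5 and 73.2 counts per 1000000 UMIs of the set (CPM), a log2 ratio of −1.13 [−1.55, −0.67]. The deleted exons are not stated, and a 3′ tag that lies outside them checks nothing.

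Glycolysis splits glucose into pyruvate in the cytosol, and lactate dehydrogenase and a lactate exporter carry the flux when respiration is limited. Low oxygen stops the prolyl hydroxylases of the EGLN family, HIF-1α protein then accumulates and binds a short core motif, and genes for glucose uptake, glycolysis, mitophagy and vessel growth are transcribed. Endothelial cells depend on glycolysis even in oxygen, and B16 melanoma is a fast-growing, glycolytic tumor.

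The core of the HIF binding motif is ACGTG, or the same letters with G in place of the first A, and both forms were searched on both strands. The windows before the start sites of 6 genes are shown because their ratios of Cre plus over Cre minus in Malat1-rich LEC, given further on, lay farthest above 0 by their intervals. Each is the 250 bases upstream of the start site (RefSeq, GRCm38.p6, which is mm10), 5′ to 3′ on the strand of the gene and capitals mark the motif on either strand. For Hilpda the first of 2 listed windows is shown.
Bnip3 (chr7:138909507-138909756, minus strand): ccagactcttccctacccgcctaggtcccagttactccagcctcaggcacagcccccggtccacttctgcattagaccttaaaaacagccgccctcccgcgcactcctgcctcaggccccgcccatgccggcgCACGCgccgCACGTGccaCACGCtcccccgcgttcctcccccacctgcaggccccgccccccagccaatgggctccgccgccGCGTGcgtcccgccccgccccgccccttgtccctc
Ankrd37 (chr8:45999851-46000100, minus strand): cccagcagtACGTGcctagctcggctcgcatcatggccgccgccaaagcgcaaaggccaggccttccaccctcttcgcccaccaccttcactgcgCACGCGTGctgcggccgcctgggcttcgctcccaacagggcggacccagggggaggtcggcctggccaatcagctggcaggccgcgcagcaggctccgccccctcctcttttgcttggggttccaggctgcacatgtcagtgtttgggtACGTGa
Egln3 (chr12:54203875-54204124, minus strand): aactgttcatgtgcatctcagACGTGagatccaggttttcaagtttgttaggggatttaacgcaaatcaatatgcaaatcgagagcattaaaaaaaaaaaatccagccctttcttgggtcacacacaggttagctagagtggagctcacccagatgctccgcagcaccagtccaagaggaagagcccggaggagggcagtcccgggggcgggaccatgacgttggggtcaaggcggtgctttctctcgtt
Pfkl (chr10:78009808-78010057, minus strand): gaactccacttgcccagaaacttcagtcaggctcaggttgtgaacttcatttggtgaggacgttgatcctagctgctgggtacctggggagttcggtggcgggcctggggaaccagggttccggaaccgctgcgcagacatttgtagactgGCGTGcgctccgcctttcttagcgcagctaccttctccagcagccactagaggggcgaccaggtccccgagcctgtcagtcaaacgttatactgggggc
Gapdh (chr6:125165774-125166023, minus strand): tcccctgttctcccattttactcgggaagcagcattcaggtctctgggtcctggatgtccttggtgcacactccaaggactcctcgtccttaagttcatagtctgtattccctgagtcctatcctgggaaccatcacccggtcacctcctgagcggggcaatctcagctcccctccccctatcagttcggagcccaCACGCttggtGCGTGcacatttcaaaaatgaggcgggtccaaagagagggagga
Hilpda (chr6:29272238-29272487, plus strand): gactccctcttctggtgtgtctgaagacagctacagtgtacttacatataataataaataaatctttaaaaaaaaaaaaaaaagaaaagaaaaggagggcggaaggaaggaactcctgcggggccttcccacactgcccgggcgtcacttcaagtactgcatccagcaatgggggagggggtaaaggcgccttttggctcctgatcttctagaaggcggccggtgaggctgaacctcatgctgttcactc

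Bnip3 held 4 separate motif runs, Ankrd37 3, Gapdh 2, and Egln3 and Pfkl 1 each, while Hilpda had none in the window. Runs that overlap or touch were counted as 1. Windows were found for 33 of the 36 members, Ero1l through its RefSeq synonym, and not for Slc2a3, Bnip3l and Ndrg1. For members with several listed windows the first was used. A run was present in 25 of the 33, or 75.8%, and 2 or more in 18, or 54.5%. Among 32851 RefSeq windows of that length, with every listed window of a gene counted, the shares were 38.6% and 13.4%. The sets were thus not chosen in the same way. The windows of the members were also richer in G and C, with a median of 64.0% against 52.4%. A match is a description of the letters and not of binding.

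The members made up several times more of the RNA in melanoma barcodes than in endothelial ones. In Malat1-rich barcodes their summed share of UMIs was 3.36% in Cre plus and 3.41% in Cre minus for melanoma, 0.679% and 0.439% for LEC, and 0.645% and 0.516% for BEC. Melanoma was far above both endothelial classes in both libraries. Smaller Malat1-rich sets of 13 to 39 barcodes lay between 0.557% and 1.17%, with those gated by macrophage and monocyte markers at 1.17% and 0.843%, by T and NK cell markers at 0.95% and 0.821%, and by pericyte and fibroblast markers at 0.800% and 0.557%.

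Against melanoma, 28 of the 35 members that could be compared in both libraries were over 1.5-fold lower in Malat1-rich LEC in both. Over all genes, 24.4% were that much lower in Cre plus and 27.1% in Cre minus. The 28 include Eno2, which had no UMI in Malat1-rich LEC and was put at 3 counts. The median log2 ratio of LEC over melanoma was −2.13 in Cre plus and −2.65 in Cre minus, against 0.22 and 0.25 over all genes with at least 100 UMIs. BEC gave −2.01 and −2.34, with 27 of 36 over 1.5-fold lower in both libraries, beside 32.7% and 34.8% of all genes in each.

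**Figure D1:**
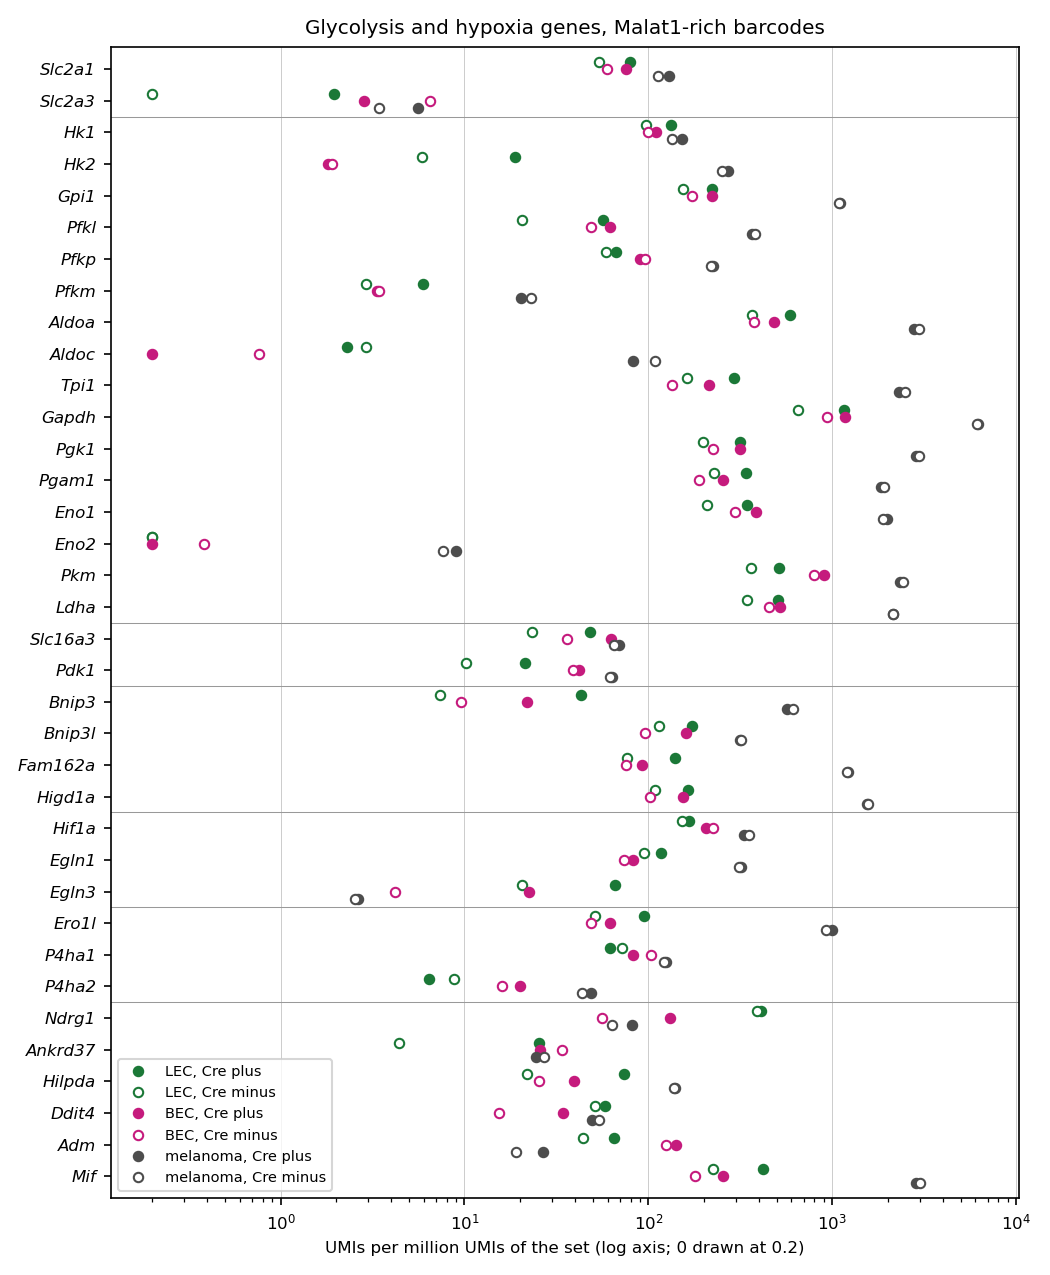
Level of each of the 36 members in Malat1-rich barcodes, in CPM on a log axis with values of 0 drawn at the left, for LEC (green), BEC (pink) and melanoma (grey), with filled points for Cre plus and open points for Cre minus and lines between role groups. Melanoma lies over 1.5-fold to the right of LEC for 15 of the 16 enzymes, whereas for Ndrg1, Egln3 and Adm LEC lies to the right of melanoma. The 15 include Eno2, which had no UMI in LEC.

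The enzymes carried most of this contrast. Of the 16 enzymes, 15 were over 1.5-fold lower in LEC than in melanoma and 15 lower in BEC than in melanoma, in each library. The 15 for LEC include Eno2, which had no UMI there and was put at 3 counts. Gapdh, which oxidises glyceraldehyde 3-phosphate, stood at 1152 and 651 CPM in Malat1-rich LEC of Cre plus and Cre minus, 1176 and 937 in BEC, and 6202 and 6100 in melanoma. Pgk1, the first ATP-yielding enzyme of the pathway, stood at 316 and 199 in LEC, 317 and 224 in BEC and 2842 and 2952 in melanoma. Both were lowest in LEC of Cre minus, and every melanoma value was above every endothelial value.

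The hexokinases Hk1 and Hk2, isoforms of the same step, had different class patterns. Hk2, the inducible hexokinase, had 18.8 and 5.85 CPM in LEC, 1.80 and 1.92 in BEC and 270 and 251 in melanoma, a log2 ratio of BEC over melanoma of −7.22 [−8.54, −6.18] in Cre plus. Hk1, the hexokinase found in most tissues, was nearly level, at 133 and 96.6 in LEC, 110 and 99.2 in BEC and 152 and 135 in melanoma. It was the enzyme that did not pass 1.5-fold. All member isoforms of phosphofructokinase, aldolase and enolase were over 1.5-fold lower in both endothelial classes than in melanoma, in both libraries. Aldoc, a brain-type aldolase, had 2.30 and 2.93 CPM in LEC and 82.6 and 109 in melanoma. Eno2, the neuronal enolase, had no UMI in Malat1-rich LEC and 8.99 and 7.63 CPM in melanoma, at least 35.1-fold lower in LEC of Cre plus when its 0 is put at 3 counts. At the depth of LEC in Cre minus, 3 counts would stand at 4.39 CPM, so little can be said of Eno2 there.

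The 4 mitochondrial members were all over 1.5-fold lower in both endothelial classes than in melanoma, with medians of −3.19 and −3.92 for LEC. Bnip3 and Bnip3l are receptors for the removal of mitochondria by autophagy. Bnip3 stood at 42.9 and 7.32 CPM in LEC, 21.9 and 9.58 in BEC and 568 and 614 in melanoma. Bnip3l was closer, at 173 and 114 in LEC, 160 and 95.8 in BEC and 314 and 321 in melanoma. Fam162a and Higd1a, small mitochondrial proteins induced by hypoxia, were at 1219 and 1207 and at 1553 and 1571 CPM in melanoma and at 76.1 to 164 in LEC. Ero1l, which drives disulfide formation in the endoplasmic reticulum, was 10.5-fold and 18.1-fold lower in LEC than in melanoma.

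A small group ran the other way. Egln3, an oxygen-sensing prolyl hydroxylase that is itself a hypoxia target, stood at 65.5 and 20.5 CPM in Malat1-rich LEC, 22.4 and 4.21 in BEC and only 2.64 and 2.54 in melanoma. LEC exceeded melanoma by a log2 ratio of 4.63 [4.30, 4.98] in Cre plus and 3.01 [2.10, 3.81] in Cre minus. Ndrg1, a stress-response gene, stood at 410 and 392 in LEC, 131 and 56.3 in BEC and 81.0 and 63.5 in melanoma. Adm, the peptide adrenomedullin that acts on vessels, stood at 64.7 and 43.9 in LEC, 142 and 125 in BEC and 26.7 and 19.1 in melanoma. Ndrg1, Egln3 and Adm were over 1.5-fold higher in LEC than in melanoma in both libraries, a direction in which 37.9% and 40.1% of all genes passed. In BEC, Egln3 and Adm were over 1.5-fold higher than in melanoma in both, where 32.1% and 34.8% of all genes were. For Egln3 in BEC of Cre minus, 4.21 CPM in a set of 2610652 UMIs is very few UMIs, so that ratio is loose. Egln1, the main oxygen sensor, and Hif1a were instead lower in LEC, at 117 and 95.1 against 320 and 313 CPM and at 166 and 152 against 332 and 352.

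LEC and BEC were close to each other as a list. The median log2 ratio of Malat1-rich LEC over BEC was 0.08 in Cre plus and −0.16 in Cre minus, beside 0.17 and 0.11 over all genes. Ndrg1 was over 1.5-fold higher in LEC in both libraries, by 1.65 and 2.80 on the log2 scale. Over all genes 21.8% and 16.5% were that much higher. Pkm (pyruvate kinase), Pdk1 (the kinase that closes the pyruvate dehydrogenase gate) and Adm were over 1.5-fold lower in LEC in both, where 11.5% and 15.3% of all genes were. Pkm stood at 516 and 363 CPM in LEC and at 904 and 791 in BEC.

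Pigment cell markers, which come from melanoma, were measured in the endothelial sets beside the members. Pigment cell markers in Malat1-rich endothelial sets stood at 0.222% to 0.482% of their melanoma level. These markers were also used in the gate, which lowers that figure. In LEC of Cre plus, 35 of 36 members were at least 10 times above that share of their own melanoma level, Eno2 being the exception. In LEC of Cre minus 31 of 36 were, and Hk2, Aldoc, Eno2, Slc2a3 and Bnip3 were not. In BEC 33 of 36 were in each library. In BEC these exceptions were Hk2 and Aldoc in both, Eno2 in Cre plus and Bnip3 in Cre minus. The bar is low because the marker share is small and lowered by the gate, and the share of all genes passing it was not computed. The counts therefore do not show how much of the members' RNA came from melanoma. The part of melanoma RNA in the endothelial values was not tested.

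The genotype comparison asked how the members differed between libraries in each class. In Malat1-rich LEC the members were higher in Cre plus. Of the 31 members with at least 100 UMIs over both libraries, 30 lay above 0, 18 were over 1.5-fold higher and none was over 1.5-fold lower, where over all 9446 genes 9.8% were that much higher and 11.9% lower. The median log2 ratio of Cre plus over Cre minus was 0.67, the medians of the members' interval bounds were 0.32 and 0.96, and the median over all genes was −0.06. Relative to the median gene, taken over genes with at least 200 UMIs, 22 members were over 1.5-fold higher. The share of all genes on that scale was not computed. The set held 11722155 UMIs against 683420, so mostly Cre plus decided which genes reached 100 UMIs. The other 5 members had too few UMIs: Pfkm 70 and 2, Aldoc 27 and 2, Slc2a3 23 and 0, P4ha2 75 and 6, and Eno2 none.

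Bnip3 had 42.9 CPM in Cre plus and 7.32 in Cre minus, from 503 and 5 UMIs, a log2 ratio of 2.55 [1.32, 4.18]. Ankrd37, a small ankyrin-repeat protein induced by hypoxia, had 25.5 and 4.39 from 299 and 3 UMIs, a ratio of 2.54 [0.98, 4.82]. Both ratios rest on very few UMIs of Cre minus. Hilpda, a lipid droplet protein that blocks fat breakdown, had 74.1 and 21.9 CPM, a log2 ratio of 1.76 [1.03, 2.60]. Egln3 had 65.5 and 20.5, a ratio of 1.68 [0.92, 2.56]. Pfkl, the liver-type phosphofructokinase, had 56.6 and 20.5, a ratio of 1.47 [0.71, 2.34]. The intervals of these 5 members lay farthest from 0, and each had 15 or fewer UMIs in Cre minus.

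Abundant members gave smaller but narrower ratios. Gapdh had 1152 and 651 CPM, a log2 ratio of 0.82 [0.69, 0.96] from 13507 and 445 UMIs. All 13 enzymes that could be compared lay above 0, from 0.19 for Pfkp to 1.68 for Hk2, and 7 were over 1.5-fold higher. All 4 mitochondrial members and both Slc16a3, which exports lactate, and Pdk1 passed 1.5-fold, at 0.60 to 2.55, although the interval of Pdk1 reached −0.01. Mif, a cytokine that is a HIF target, had 418 and 225 CPM and a ratio of 0.89 [0.66, 1.13]. At the low end were Ndrg1 at 0.06 [−0.11, 0.25], Hif1a at 0.13 [−0.16, 0.42] and P4ha1, a collagen prolyl hydroxylase, at −0.21 [−0.63, 0.24].

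**Figure D2:**
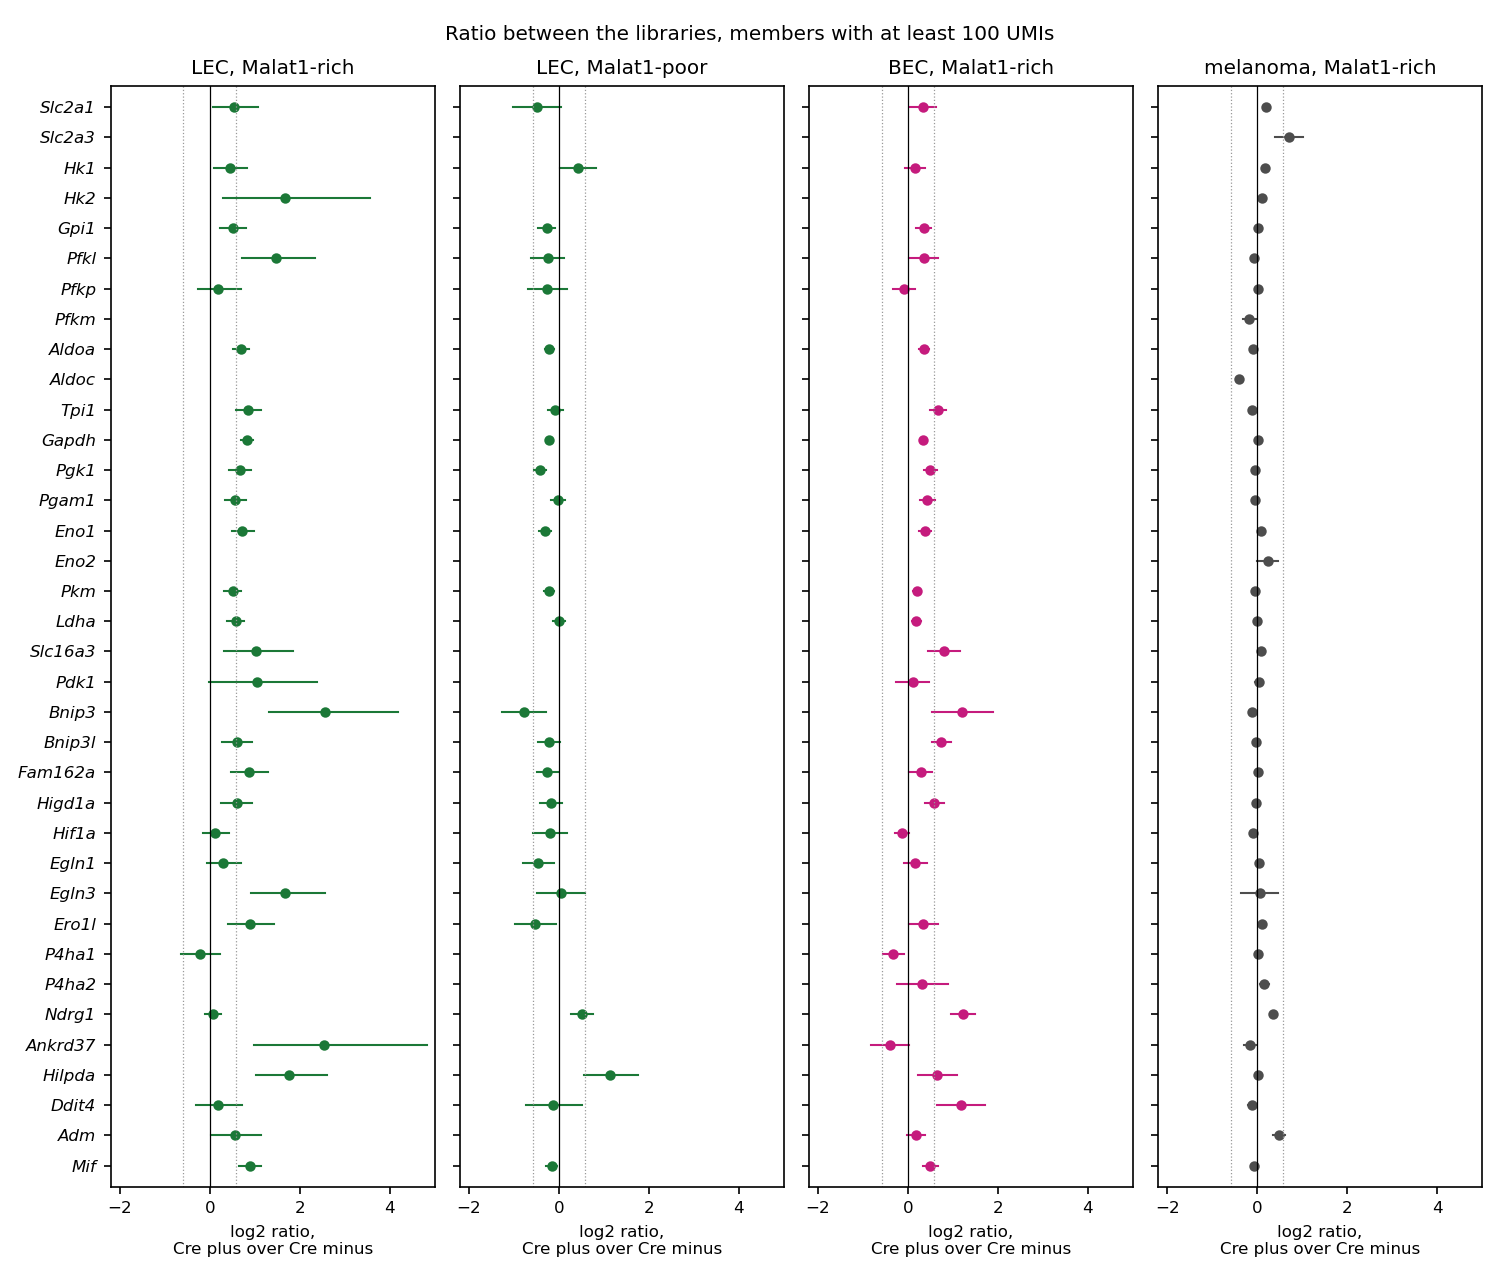
Log2 ratio of Cre plus over Cre minus for each member with at least 100 UMIs, with exact 95% counting intervals, in Malat1-rich LEC, Malat1-poor LEC, Malat1-rich BEC and Malat1-rich melanoma; dotted lines mark 1.5-fold. In Malat1-rich LEC 30 of 31 points lie right of 0, and in Malat1-rich melanoma the points lie near 0 with Slc2a3 at 0.71.

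The Malat1-poor LEC did not show this. Of 25 members compared, 5 lay above 0, with a median log2 ratio of −0.22 against 0.14 over all genes. That median was 0.0096 with cycling barcodes left out and 0.0071 as a mean over barcodes. Hilpda was over 1.5-fold higher, at 76.3 and 34.6 CPM and a ratio of 1.14 [0.57, 1.76], and Bnip3 over 1.5-fold lower, at 41.9 and 71.6 CPM and −0.77 [−1.26, −0.28]. Over all genes 16.3% were that much higher and 2.99% lower. Gapdh had 2604 and 3043 CPM, a ratio of −0.22 [−0.29, −0.16]. Hilpda was thus higher in Cre plus in both strata and Bnip3 in the Malat1-rich stratum. With both strata summed, the median over 31 members was −0.03, with 14 above 0, 3 over 1.5-fold higher and none lower, beside 0.29 over all genes, of which 24.1% were higher and 1.91% lower, while 59.4% and 18.5% of the LEC barcodes were Malat1-rich. The difference between the strata was not tested.

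Other values differed between the Malat1-rich LEC sets. Median depth was 29471 against 16566.5 UMIs, Cre plus first. Malat1 took 1.04% and 1.38% of UMIs and ribosomal protein genes 13.8% and 9.82%. The 11 mitosis markers, all detected in both, summed to 780 and 372 CPM, and the 8 immediate-early and handling genes to 616 and 414. In Cre minus 1 barcode held 24.5% of the member UMIs, against 1.94% for the top barcode of Cre plus. Without the top barcode of each set, chosen after seeing the data, the median was 0.73 and 22 members were over 1.5-fold higher. With Malat1 capped at 1%, also chosen after seeing the data, 190 and 12 barcodes remained, and the median was 0.30 with 9 members over 1.5-fold higher. The median was 1.06 with cycling barcodes left out and 1.06 at 10000 to 40000 UMIs, and 11 members were higher at a Malat1 limit of 0.05%. For these alternatives the share of all genes past 1.5-fold was not computed, so their counts have none beside them. The part of depth, Malat1 and ribosomal share in the result was not tested.

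In Malat1-rich BEC 26 of 30 members lay above 0 and 7 were over 1.5-fold higher, where 6.46% of all genes were higher and 7.5% lower by that much. The median log2 ratio was 0.34, against −0.05 over all genes. Ndrg1 had 131 and 56.3 CPM, a log2 ratio of 1.21 [0.95, 1.49]. Ddit4, an inhibitor of mTOR signalling, had 34.5 and 15.3 and a ratio of 1.17 [0.65, 1.72]. Bnip3 had 21.9 and 9.58 and a ratio of 1.19 [0.54, 1.90]. Bnip3l (0.74), Slc16a3 (0.80), Tpi1 (0.67), the triose phosphate isomerase, and Hilpda (0.64) made up the 7. P4ha1 lay below 0, at 82.7 and 103 CPM and −0.32 [−0.56, −0.08].

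The BEC median was smaller where depth was limited. Median depth was 20967 against 13675 UMIs, Cre plus first, and 1 barcode held 18.5% and 21.8% of member UMIs. Among barcodes of 10000 to 40000 UMIs, chosen after seeing the data, the median ratio was 0.07. Thinned to 2000 UMIs per barcode, 7 members could be compared, with a median of 0.13 and none over 1.5-fold. The count of 7 was 1 with Malat1 capped at 1% (chosen after seeing the data), 3 at a minimum of 400 UMIs, 11 at a Malat1 limit of 0.2% and 14 without cycling barcodes. For these alternatives too the share of all genes was not computed. Other values also differed between the Malat1-rich BEC sets. The 5 red cell genes, all detected in both, summed to 1813 and 75.1 CPM and the 8 immediate-early and handling genes to 601 and 260. Pericyte and fibroblast markers, 5 of 9 detected in each with Col1a1, Pdgfrb, Dcn and Lum at 0, summed to 35.0 and 9.19 CPM. Ribosomal protein genes took 11.8% and 8.45% of UMIs and mitochondrial genes 2.21% and 3.11%. Their part in the result was not tested.

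In Malat1-poor BEC the median over 15 members was 0.07 and none passed 1.5-fold, where 5.91% of all genes were higher and 4.2% lower.

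The melanoma barcodes, which come from the same injected line in both groups, were nearly level. In the Malat1-rich stratum all 36 members were compared, the median log2 ratio was 0.02 and 1 member passed 1.5-fold, where 1.41% of all genes were higher and 1.55% lower. It was Slc2a3, a high-affinity glucose transporter, at 5.61 and 3.43 CPM and 0.71 [0.39, 1.02]. Gapdh lay at 0.02 [0.02, 0.03], a sign that turned when ratios were scaled to the median gene. Adm (26.7 and 19.1 CPM, 0.48 [0.34, 0.62]) and Ndrg1 (81.0 and 63.5 CPM, 0.35 [0.28, 0.43]) were next, and Aldoc was lowest, at −0.40 [−0.47, −0.33]. In Malat1-poor melanoma 28 of 33 lay above 0 with a median of 0.14, and Ndrg1 passed 1.5-fold, at 73.0 and 47.3 CPM and 0.63 [0.43, 0.82], where 0.765% of all genes were higher and 2.69% lower. Ndrg1 thus had an interval above 0 in both melanoma strata and in Malat1-rich BEC. In Malat1-poor LEC it had 304 and 214 CPM, 0.51 [0.27, 0.75], which did not pass 1.5-fold, and in Malat1-rich LEC its interval held 0.

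Related genes outside the 36 did not all follow in Malat1-rich LEC. Beside the counts that follow, 9.8% of all genes were over 1.5-fold higher there and 11.9% lower. Of 23 other glycolysis genes, mostly tissue isoforms and regulators, 5 could be compared, with a median log2 ratio of −0.44 and none over 1.5-fold higher. Pfkfb3, which makes the activator of phosphofructokinase, had 62.8 and 58.5 CPM and a ratio of 0.10 [−0.36, 0.60]. Of 27 other hypoxia-response genes 20 could be compared, 5 were over 1.5-fold higher and 1 lower, and the median was 0.26. Vegfa, the main angiogenic factor, had 212 and 2 UMIs, a ratio of 2.63 [0.76, 5.68]. Of 14 genes around HIF 12 could be compared, with a median of 0.20, 2 higher and 1 lower. Siah2, a ubiquitin ligase for prolyl hydroxylases, had 288 and 4 UMIs and a ratio of 2.07 [0.70, 3.96]. Epas1, which encodes HIF-2α, was the lower one, at 11.9 and 23.4 CPM and −0.98 [−1.73, −0.13]. Pentose phosphate genes had a median of 0.12 over 7 and genes of pyruvate entry into mitochondria 0.01 over 9. Named genes among these were chosen after their values were seen.

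Relative to their level, shares of the members were spread more widely over LEC and BEC barcodes than over melanoma barcodes. Barcodes were thinned to 10000 UMIs for endothelial and 20000 for melanoma Malat1-rich sets, which left out as too shallow 31 and 82 melanoma, 40 and 9 LEC, and 33 and 43 BEC barcodes. In melanoma the median share was 3.34% in Cre plus and 3.70% in Cre minus. The 95th percentile was 3.52 and 3.94 times the 5th. In LEC of Cre plus the median was 0.450% with a 95th percentile of 2.30%, and in Cre minus 0.340% and 0.829% from 23 barcodes. In BEC the medians were 0.43% and 0.30% and the 95th percentiles 1.17% and 0.885%. The 95th percentile was 11.2 and 4.85 times the 5th in LEC and 6.49 and 6.83 times in BEC. At these depths endothelial barcodes held fewer member UMIs than melanoma barcodes, and low counts widen such ratios. The part of counting error in the wider endothelial spread was not tested. Before thinning the medians were 3.40% and 3.73% in melanoma and 0.446% and 0.333% in LEC.

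**Figure D3:**
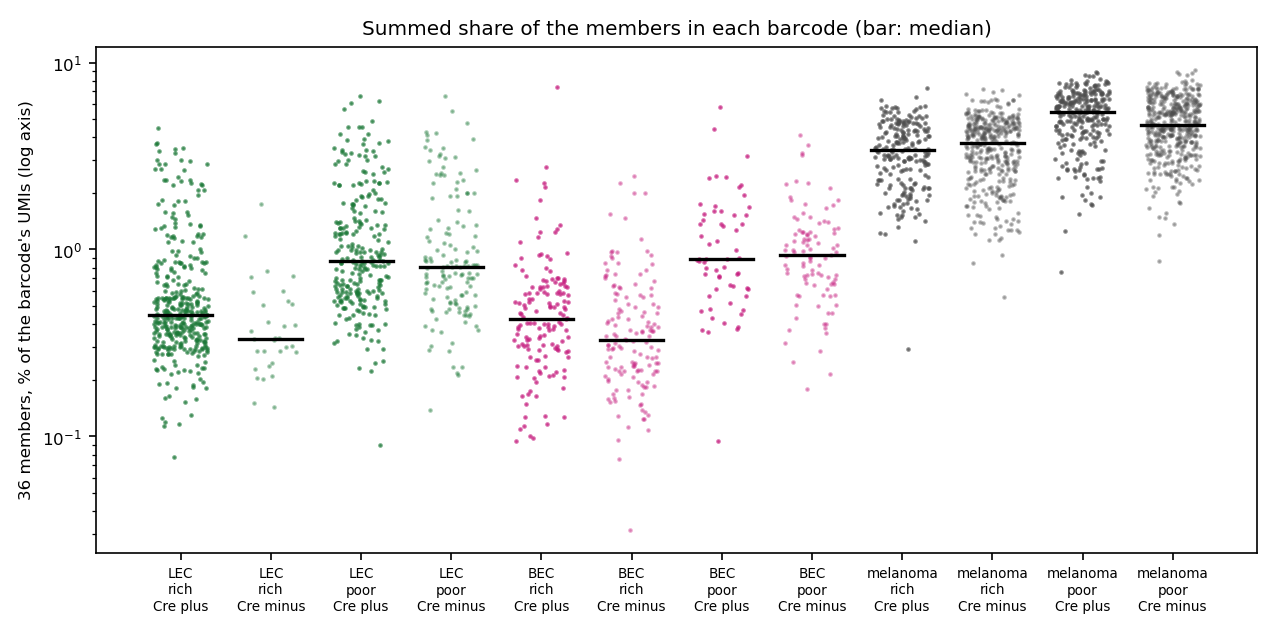
Summed share of the 36 members in each barcode, as a percent of its UMIs on a log axis and before thinning, by class, Malat1 stratum and library, with a bar at the median. Endothelial sets have medians of 0.329% to 0.935% with tails reaching up to 7.37%, and melanoma sets have medians of 3.40% to 5.44%.

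In Malat1-rich LEC of Cre plus, the 10% of thinned barcodes with the most UMIs of a gene held 87.6% of Bnip3, 91.5% of Adm, 78.6% of Slc16a3, 78.4% of Ero1l, 68.3% of Hilpda and 67.3% of Egln3. Abundant enzymes were in nearly every barcode, with no UMI of Gapdh in 2.70% and of Ldha, the lactate dehydrogenase chain, in 7.51%, and their highest barcodes held 35.2% and 35.7%. For Hif1a they held 27.6%, with a variance of 1.16 times its mean. Low counts, as in the first group and in Hif1a, widen such shares, so these are not on the same scale. Bnip3 averaged 0.511 UMIs per thinned barcode and Hif1a 1.56, against 11.3 for Gapdh. Summed members had a Spearman's rho of 0.10 with pigment cell markers across the 333 barcodes, −0.40 with mitochondrially encoded genes and −0.25 with Malat1. Correlations here are across barcodes of 1 library, which share its preparation, and are given as description.

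In melanoma the members varied together. Across Malat1-rich melanoma barcodes the enzymes and the other 20 members had a rho of 0.85 in Cre plus (180 barcodes) and 0.84 in Cre minus (286 barcodes). Summed members had a rho of 0.75 and 0.72 with 27 hypoxia-response genes that are not members, and of −0.40 and −0.26 with mitosis markers. In Malat1-poor melanoma the rho between enzymes and other members was 0.67 and 0.78. In Malat1-rich LEC of Cre plus it was 0.63 and in Malat1-rich BEC 0.54 and 0.42. In Malat1-poor LEC it was 0.67 and 0.60, and in Malat1-poor BEC 0.66 and 0.32. Malat1-rich and Malat1-poor sets were thinned to 20000 and 5000 UMIs in melanoma and to 10000 and 2000 in LEC and BEC. Low counts hold rho down, so the classes are not on the same scale.

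**Figure D4:**
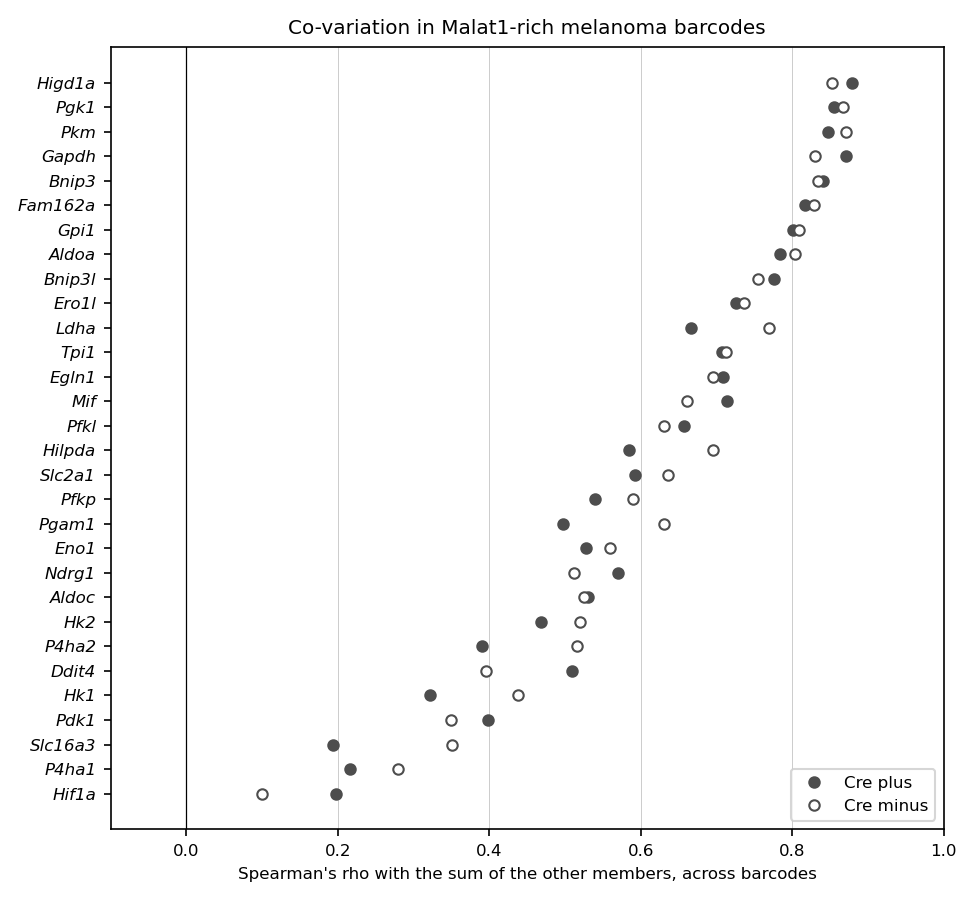
Spearman's rho of each member with the sum of the other members across Malat1-rich melanoma barcodes thinned to 20000 UMIs, for members averaging at least 0.5 UMIs, with filled points for Cre plus (180 barcodes) and open points for Cre minus (286 barcodes). Higd1a, Pgk1, Pkm, Gapdh and Bnip3 lie above 0.8 in both, and Hif1a is low in both, at 0.20 and 0.10.

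The members with the highest rho were Higd1a (0.88 and 0.85), Pgk1 (0.86 and 0.87), Pkm (0.85 and 0.87), Gapdh (0.87 and 0.83) and Bnip3 (0.84 and 0.83). Hif1a mRNA, at 0.20 and 0.10, P4ha1, at 0.22 and 0.28, and Slc16a3, at 0.19 and 0.35, were low in both libraries. Mean counts differ between these genes, and low counts hold rho down. Hif1a averaged 6.94 and 6.85 UMIs, P4ha1 2.41 and 2.53, and Slc16a3 1.45 and 1.38. Bnip3l, at 6.65 in both, had a rho of 0.78 and 0.76. The part of the mean count in these values was not tested. Ero1l had the highest variance relative to its mean, 30.3 and 27.7, a measure that grows with the mean, which was 20.7 and 19.5 UMIs. The 10% of barcodes highest for Ero1l held 38.0% and 37.6% of its UMIs. For the sparser Ndrg1 and Hilpda the barcodes were ranked anew by each gene. Their own highest 10% held 52.9% and 48.9% of Ndrg1, and 49.5% and 47.0% of Hilpda. Whether these were the same barcodes was not tested.

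The Malat1 split separated the members by gene. Malat1-poor barcodes were shallow, with medians of 3174 to 11516.5 UMIs. The whole list took 1.08% and 1.23% in LEC, 1.21% and 1.11% in BEC and 4.62% and 4.19% in melanoma. In LEC 11 of 20 members compared in both libraries were over 1.5-fold lower in Malat1-rich barcodes in both, where 5.72% and 23.4% of all genes were lower. In BEC it was 11 of 27, where 12.1% and 20% were. In melanoma no member was lower in both, where 1.22% and 1.49% of all genes were.

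Gapdh had 1152 CPM in Malat1-rich and 2604 in Malat1-poor LEC of Cre plus, and 651 and 3043 in Cre minus, log2 ratios of −1.18 [−1.22, −1.13] and −2.22 [−2.37, −2.08]. In melanoma the ratios were −0.74 and −0.53. Mif, the shortest member gene, gave −1.17 and −2.23 in LEC. Aldoa, Tpi1, Pgk1, Pgam1, Eno1, Pkm, Gpi1 and Fam162a were also lower in the Malat1-rich barcodes of LEC and BEC in both libraries.

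Other members ran the opposite way. Hif1a had 166 CPM in Malat1-rich and 87.6 in Malat1-poor LEC of Cre plus, and 152 and 100 in Cre minus. It was the member over 1.5-fold higher in Malat1-rich LEC in both libraries, where 55.1% and 42.5% of all genes were. In BEC Hif1a, Slc2a1 (the basal glucose transporter), Slc16a3, P4ha1 and Adm were, where 49.9% and 54.3% of all genes were, and in melanoma Slc2a3, P4ha1, P4ha2 and Adm were, where 36% and 30.4% were. P4ha1 had 124 and 66.3 CPM in Malat1-rich and Malat1-poor melanoma of Cre plus and 122 and 57.3 in Cre minus.

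The median gene itself differed between the strata. Its log2 ratio, over genes with at least 200 summed UMIs, was 0.66 and −0.20 in LEC, Cre plus first. It was 0.51 and 0.73 in BEC and 0.31 and 0.21 in melanoma. The share of all genes past 1.5-fold was not computed on the scale of the median gene, so the counts that follow have none beside them. Relative to the median gene, 18 of 31 members were over 1.5-fold lower and 2 higher in LEC of Cre plus, in place of 11 and 8. In LEC of Cre minus, where that median was below 0, 14 of 20 were lower and 2 higher, in place of 15 and 2. Among genes with at least 100 UMIs there, 42.5% were over 1.5-fold higher in Malat1-rich barcodes and 23.4% lower. The sign of −0.20 is thus given for the deeper genes only. In BEC 20 of 29 were lower and 2 higher in Cre plus, in place of 13 and 5, and 20 and 3 of 27 in Cre minus, in place of 16 and 6. In melanoma 14 of 35 were lower and 3 higher in Cre plus, in place of 3 and 5, and 3 of 36 lower and 4 higher in Cre minus, in place of 0 and 6.

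**Figure D5:**
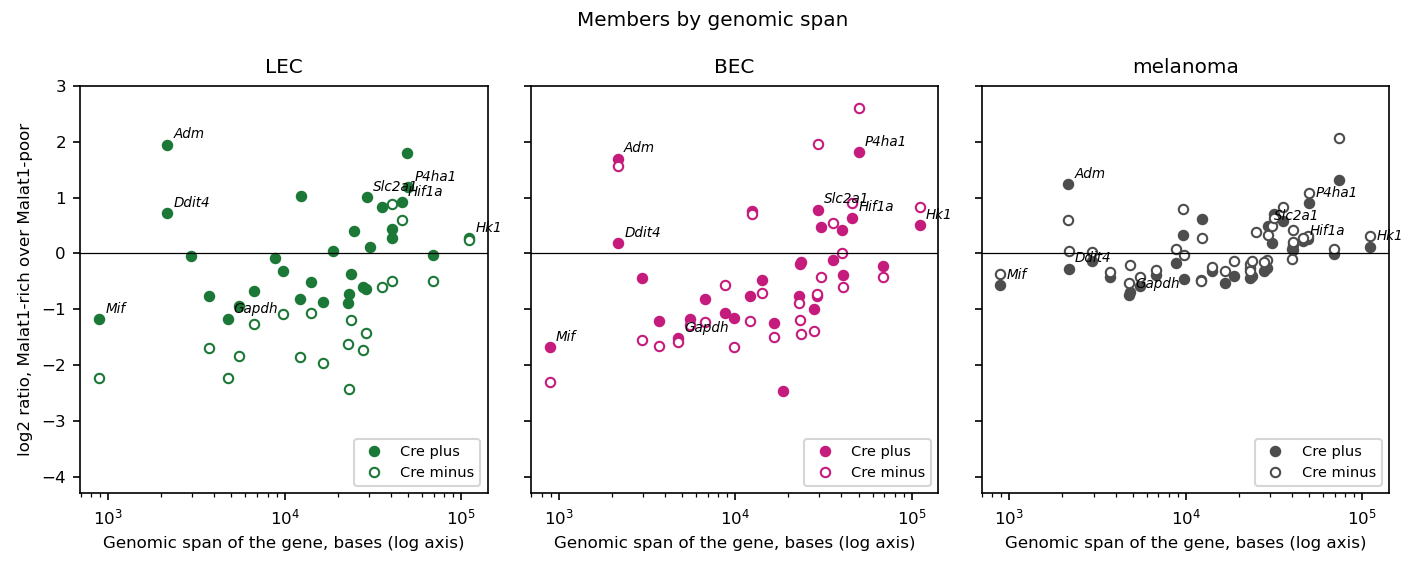
Log2 ratio of Malat1-rich over Malat1-poor barcodes for each member with at least 100 UMIs against the genomic span of its gene (log axis), for LEC, BEC and melanoma, with filled points for Cre plus and open points for Cre minus. Short genes such as Mif and Gapdh lie below 0 and long genes such as P4ha1 and Hif1a above it, while Adm, a short gene, lies above 0.

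Across members the ratio went with the genomic span of the gene (GENCODE M21, mm10). Spearman's rho was 0.45 and 0.72 in LEC (31 and 20 members), 0.48 and 0.62 in BEC (29 and 27) and 0.55 and 0.55 in melanoma (35 and 36). Mif spans 888 bases (chr10:75859353-75860240, minus strand) and Gapdh 4753 bases (chr6:125161715-125166467, minus strand). Hif1a spans 46156 bases (chr12:73901375-73947530, plus strand) and P4ha1 50009 bases (chr10:59323296-59373304, plus strand). Adm spans 2160 bases (chr7:110627661-110629820, plus strand) and lay above 0 in all of the sets where it was compared, at 1.95 in LEC of Cre plus and 1.70 and 1.57 in BEC. All 36 members are protein-coding genes, which are not independent of each other in this comparison.

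Counts of Gapdh, Aldoa, Pgk1, Eno1, Tpi1, Pgam1, Ldha and Mif are uncertain to the extent that reads were shared with near-identical gene copies, since the treatment of such reads is not stated in the labels. Aldoa has 2 identifiers in the tables, which were summed, the second holding 12 and 6 UMIs over all barcodes.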

How the data were processed

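The deposited matrices hold raw counts, whole-number UMI counts per gene and barcode for 32285 genes per the file headers, 1 matrix per library. Single-cell 3′ libraries (kit v3.1) were processed by the authors with Cell Ranger 7.0.0 on mm10, per the submitters' processing notes, which name no annotation. Barcodes with at least 500 genes, under 10% mitochondrial and at most 50% haemoglobin UMIs were kept. Each barcode went to the class with the highest marker share, divided by the 99th percentile of that share, if this reached 0.05 and was 3 times the next class; mixed barcodes (214 and 104) and those without a class (143 and 129) were left out, and no doublet caller was run. Near the ratio limit (2 to 4.5 times) lay 241 and 115 barcodes. A class of platelet markers led by macrophage genes stayed unnamed and unused. Counts were summed per class, stratum and library and scaled to 1000000 (CPM). Ratios carry exact conditional binomial 95% intervals. A count of 0 was put at 3 counts in a ratio, and a member was not compared where that floor lay above the other set. Genes with at least 100 summed UMIs were compared, and "over 1.5-fold" is a size and not a test. The median gene used for scaling was taken over genes with at least 200 summed UMIs. Genes named singly include those whose interval bound nearest to 0 lies farthest from it, at most 6 per direction. Further members were named outside that rule. Members and lists were chosen with earlier results of these data known. The ratio and interval were tested on simulated counts. Alternatives are in the closing section. Python 3.11.15, numpy 2.4.6, scipy 1.17.1, leidenalg 0.10.2 and igraph 0.11.9 were used.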

Additional observations from a re-analysis of the deposited data

How the results depend on the processing

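No paired analysis was possible because each group has 1 library. All values here are medians of members' log2 ratios unless called counts, the alternatives changed 1 choice at a time, and 3 of them (Malat1 capped at 1%, barcodes of 10000 to 40000 UMIs, and the sets without their top barcode) were chosen after seeing the data. Counts under the alternatives have no share of all genes beside them, because it was not computed. In Malat1-rich LEC the median of Cre plus over Cre minus stayed above 0 in 15 of 15 alternatives. It was 1.06 with cycling barcodes left out, 1.06 at 10000 to 40000 UMIs and 0.30 with Malat1 capped, and the count of 18 higher members was 11 at a Malat1 limit of 0.05%, 7 of 14 compared after thinning to 2000 UMIs and 9 with the cap. In Malat1-rich BEC it stayed above 0 in 15 of 15. It was 0.13 thinned, 0.58 without cycling barcodes and 0.074 at 10000 to 40000 UMIs, and the count of 7 was 11 at a limit of 0.2%, 0 thinned, 14 without cycling barcodes, 3 at a minimum of 400 UMIs, 1 with the cap and 4 at 10000 to 40000 UMIs. The Malat1-poor LEC median stayed below 0 in 11 of 13, and was 0.0096 without cycling barcodes, 0.0071 as a mean over barcodes, −0.0043 thinned and −0.012 at a gate ratio of 6. Malat1-poor BEC with classes from clusters gave −0.31. Malat1-rich melanoma was 0.036 at the 0.2% limit, −0.083 at under 5% mitochondrial UMIs, −0.045 as a mean over barcodes, −0.037 thinned and 0.13 without cycling barcodes, and Gapdh there was −0.012 scaled by the median gene. Malat1-poor melanoma was 0.031 at the 0.2% limit.

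For Malat1-rich over Malat1-poor, scaling by the median gene gave −0.70 in LEC, −0.96 in BEC and −0.49 in melanoma of Cre plus and −1.46 in BEC and −0.17 in melanoma of Cre minus. The 0.2% limit gave 0.0055 in melanoma of Cre plus, and −1.02 in BEC and 0.20 in melanoma of Cre minus. LEC over melanoma in Cre plus was −2.08 with clusters and −2.33 scaled for Malat1-rich, and −1.73 with clusters, −1.66 at 0.2% and −1.67 scaled for Malat1-poor. LEC over BEC there was −0.083 scaled. In Cre minus, BEC over melanoma was −2.57 at 0.2% for Malat1-rich and −1.44 with clusters, −1.55 at 0.2% and −1.32 scaled for Malat1-poor, and LEC over melanoma was −0.86 scaled for Malat1-poor. The causes were not tested, other than that thinning leaves fewer members to compare.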
